A study of Mus musculus with 12 samples.

Results

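The transcription factors Egr1, Egr2, Egr3, Nr4a1, Nr4a2 and Nr4a3 and the surface protein Cd69 are early response genes of the T cell receptor (TCR) and are used to read the strength of its signal. They were chosen by name, with earlier results of these data known. All 7 were found among the 33696 genes of the files (identifiers ENSMUSG00000038418, ENSMUSG00000037868, ENSMUSG00000033730, ENSMUSG00000023034, ENSMUSG00000026826, ENSMUSG00000028341 and ENSMUSG00000030156, in the same order). They were measured by 3′ single-cell RNA sequencing in 3 compartments of adult mice on the C57BL6/J background. These were sorted γδ T cells of the spleen, sorted γδ T cells of the thymus, and a joint sort of thymic CD4-negative CD8-negative (DN) cells of the stages DN1, DN2 and DN3. Each of 6 pools mixed wild-type (WT) cells with cells of mice labelled GFI1 KO, which lack the transcriptional repressor GFI1 in the germline and so in every tissue. Hashtag antibodies separated the genotypes, which gave 12 libraries, 2 per genotype and compartment, and the files do not say how many mice a pool held. B cells, myeloid cells and NK cells had been removed with magnetic beads before the sort.

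TCR engagement activates the ERK pathway, which acts through serum response factor and its partners on the Egr genes, and calcium and protein kinase C signals that induce the Nr4a genes. The Egr proteins are zinc finger factors that raise Id3 in thymic γδ T cells, where a strong signal favours one set of effector fates and a weak signal favours IL-17-producing cells. The Nr4a proteins are orphan nuclear receptors, of which Nr4a1 (Nur77) is the usual reporter of recent TCR signalling. Cd69 binds the egress receptor S1pr1, holds cells in tissue, and can also be induced by cytokines. Cd24a marks immature γδ thymocytes and is lost as they mature.

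Of the 7 genes, 4 had a start region in the RefSeq promoter table (assembly GRCm38.p6): Egr2, Nr4a1, Nr4a2 and Nr4a3. The 250 bases before the annotated start are shown for the 2 genes whose window held a known signal-responsive motif searched for on both strands. Both lie on the plus strand, at chr15:101266596-101266845 for Nr4a1 and at chr10:67537619-67537868 for Egr2. All 4 genes with a window fell in splenic γδ T cells labelled KO, and the windows of Nr4a2 and Nr4a3 held none of the motifs searched for. Capitals mark the motif TGCGTCA, which resembles a cAMP response element, in Nr4a1 and the CArG box, the binding motif of serum response factor, in Egr2.
Nr4a1: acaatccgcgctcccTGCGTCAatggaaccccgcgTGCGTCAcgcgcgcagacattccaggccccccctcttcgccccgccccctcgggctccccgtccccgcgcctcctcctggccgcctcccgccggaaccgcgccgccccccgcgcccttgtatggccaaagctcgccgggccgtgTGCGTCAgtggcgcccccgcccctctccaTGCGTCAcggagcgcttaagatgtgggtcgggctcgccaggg
Egr2: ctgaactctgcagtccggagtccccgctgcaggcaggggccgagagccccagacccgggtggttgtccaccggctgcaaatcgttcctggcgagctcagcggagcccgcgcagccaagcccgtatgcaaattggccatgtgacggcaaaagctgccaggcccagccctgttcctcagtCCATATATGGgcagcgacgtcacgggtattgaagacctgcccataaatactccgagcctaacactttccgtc
TGCGTCA occurred 4 times in the Nr4a1 window, and at least once in 1.75% of the 32851 windows of that length. The Nr4a1 window was the only 1 of these windows with 4 or more copies. The table held 5 starts for Egr2, and the CArG box was found once in 4 of their windows, in the window shown between 72 and 63 bases before the start, and in 1.47% of all windows. The full element TGACGTCA, the Egr motif GCGTGGGCG and the Nr4a motif AAAGGTCA, found in 1.55%, 0.536% and 1.34% of all windows, had no match in any window of the 4 genes. The motifs overlapped none of each other in the shown sequences, and a match in letters does not show that a factor binds.

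The 12 libraries held between 6795 and 11679 cells that passed the filters and between 42091895 and 71663962 unique molecular identifiers (UMIs), with a median of 4947 to 6853 UMIs per cell. Gfi1, the targeted gene, had no lower level under the KO label. Its mean level was 14.9 CPM (UMIs of a gene per 1000000 UMIs of its library) in WT and 18.1 CPM in KO spleen, 17.02 CPM in WT and 24.1 CPM in KO thymic γδ T cells, and 42.65 CPM in WT and 63.6 CPM in KO DN cells. A 3′ count can lie outside a deleted part, so the level is no check of the genotype, and the libraries are named below by their labels. Libraries of one pool shared 0 cell barcodes and those of different pools 5 to 34. Trdc, Trgc1 and the CD3 genes summed to between 3936 and 4142 CPM in WT and between 6054 and 7592 CPM in KO γδ T libraries. The same list lay between 3456 and 3795 CPM in DN libraries, below every γδ T library but close to the WT ones. Xist was at most 0.374 CPM in splenic libraries and at least 739 CPM in thymic ones, so the sex of the mice and the organ cannot be told apart.

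In splenic γδ T cells, all 3 Egr genes and all 3 Nr4a genes fell in the libraries labelled KO, while Cd69 did not. Nr4a1 had the lowest adjusted p of the 7. It was at 29.7 and 30.6 CPM in the WT libraries and at 4.44 and 4.33 CPM in the KO libraries. The groups lay far apart, and the log2 difference was -2.69 ± 0.16 (SE, n = 2 libraries per label), a 6.44-fold drop (adjusted p = 6.64e-07, edgeR quasi-likelihood test). Its relative Nr4a3 was at 11.7 and 13.2 CPM in WT and at 0.662 and 1.28 CPM in KO libraries (log2 difference -3.56 ± 0.31, adjusted p = 6.9e-06). Nr4a2 was at 11.998 and 11.4 CPM in WT and at 2.01 and 2.33 CPM in KO libraries (-2.33 ± 0.27, adjusted p = 4.63e-05). All 3 orphan receptors were thus lower in both pools, where 26.1% of all genes tested fell.

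Among the Egr genes of the spleen, Egr3, which with Egr2 restrains activated T cells, fell from 13.8 and 15.6 CPM to 0.961 and 1.17 CPM (-3.69 ± 0.56, adjusted p = 0.000351, edgeR). Egr2 was at 5.16 and 6.60 CPM in WT libraries and at 0.342 and 0.705 CPM in KO libraries, which rests on 16 and 49 UMIs (-3.35 ± 0.44, adjusted p = 0.000126). Egr1, the most general immediate early gene of the family, was at 26.7 and 29.7 CPM against 12.004 and 11.007 CPM (-1.20 ± 0.34, adjusted p = 0.0133). Its change was the smallest of the 6 that fell, and its call was lost without the WT library of pool 2 (adjusted p = 0.062) or the KO library of pool 2 (adjusted p = 0.0767), and without the low-count filter (adjusted p = 0.0563). Cd69 was at 65.2 and 76.4 CPM in WT and at 76.9 and 91.9 CPM in KO libraries, a difference of 0.35 ± 0.27 with an adjusted p of 0.312, and it was called higher when only the 4 splenic libraries were fitted (0.30 ± 0.10, adjusted p = 0.0401). So 6 of the 7 genes fell in the spleen and 0 rose, where 26.1% of the 14922 genes tested fell and 28.6% rose. The median log2 difference of the 7 genes was -2.69 beside 0.0032 over all genes tested.

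**Figure D1:**
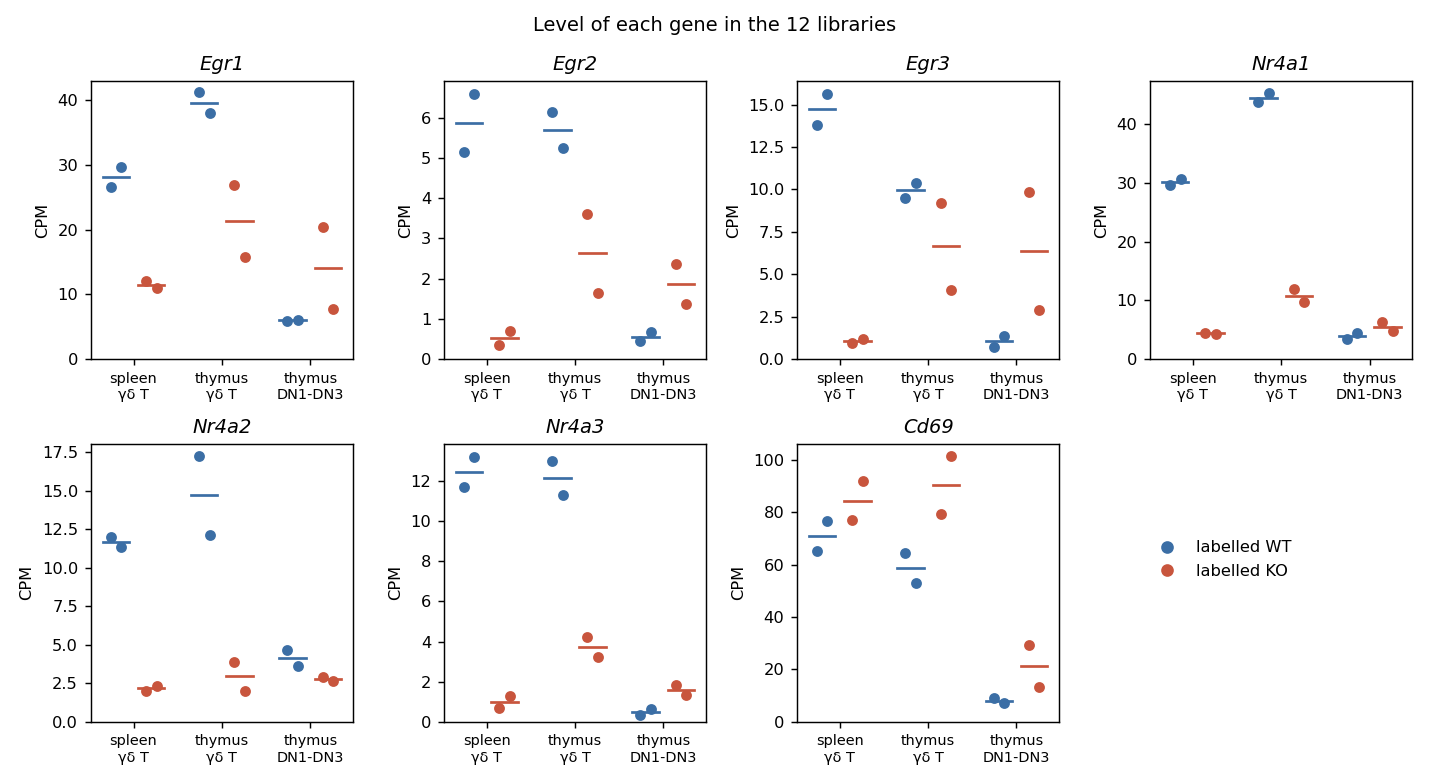
Level of each of the 7 genes in the 12 libraries, in CPM on a linear axis that starts at 0. Points are libraries, horizontal lines are the mean of the 2 libraries of a label, blue is WT and red is KO. Nr4a1 lies near 30 CPM in the WT spleen and near 4.4 CPM in the KO spleen, whereas Cd69 is not lower in KO libraries of any compartment.

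In thymic γδ T cells the 3 Nr4a genes fell as well, the Egr genes did not pass the test, and Cd69 rose. Nr4a1 was at 43.8 and 45.3 CPM in WT libraries and at 11.9 and 9.70 CPM in KO libraries (log2 difference -1.92 ± 0.15, n = 2, adjusted p = 9.74e-06, edgeR). Nr4a2, a paralog with the same DNA motif, was at 17.3 and 12.1 CPM against 3.90 and 1.98 CPM (-2.21 ± 0.27, adjusted p = 8.93e-05). Nr4a3 was at 13.0 and 11.3 CPM against 4.25 and 3.22 CPM (-1.58 ± 0.28, adjusted p = 0.000915). These 3 genes were lower in both pools, and 23.7% of all genes tested fell in this comparison.

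The Egr genes of thymic γδ T cells varied between the 2 KO libraries. Egr1 was at 41.2 and 38.0 CPM in WT libraries and at 26.8 and 15.7 CPM in KO libraries (-0.78 ± 0.33, adjusted p = 0.0762, edgeR). Egr2 was at 6.14 and 5.25 CPM against 3.61 and 1.65 CPM (-1.004 ± 0.383, adjusted p = 0.0518), and it passed with the pool as a block (-1.07 ± 0.33, adjusted p = 0.0306). Egr3 was at 9.52 and 10.4 CPM against 9.21 and 4.08 CPM (-0.47 ± 0.49, adjusted p = 0.448), so that its KO library of pool 1 was close to the WT libraries. For each of the 3 genes the KO library of pool 2 was the lowest of the 4. DESeq2 called both Egr1 (adjusted p = 0.0327) and Egr2 (adjusted p = 0.0323), and edgeR called Egr1 when only these 4 libraries were fitted (-0.78 ± 0.22, adjusted p = 0.0282). It called Egr2 without the KO library of pool 1 (adjusted p = 0.0129) and with the excluded genes kept (adjusted p = 0.0392).

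Cd69 rose in thymic γδ T cells, from 64.4 and 52.8 CPM to 79.4 and 101 CPM (0.75 ± 0.28, adjusted p = 0.0446, edgeR), where 26% of all genes tested rose. This call was close to its limit. It was lost without any 1 of the 4 libraries (adjusted p 0.0515 to 0.265), and also when cells that led with Trgv6 were left out (0.58 ± 0.29, adjusted p = 0.14), an alternative added after the data were seen. It was lost as well without the low-count filter (adjusted p = 0.139) and with ribosomal, Gm-numbered and mitochondrial genes kept (adjusted p = 0.0791). The counts of the WT and KO libraries of pool 1 were 3796 and 3361 UMIs, so counting error was small.

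The difference between the labels was larger in the spleen than in the thymus for 4 of the 7 genes by a direct test, where 15.9% of all genes tested had a lower KO minus WT difference in the spleen. Egr3 differed most, by -3.21 ± 0.73 on the log2 scale (adjusted p = 0.00956, edgeR interaction). Egr2 differed by -2.35 ± 0.57 (adjusted p = 0.0133) and Nr4a3 by -1.97 ± 0.40 (adjusted p = 0.00535). Nr4a1 differed by -0.76 ± 0.22 (adjusted p = 0.0239), a call that was lost with the pool as a block (adjusted p = 0.0517) and without 7 of the 8 libraries, each left out in turn (adjusted p 0.0533 to 0.0825). For Nr4a2 the spleen and thymus differed by -0.12 ± 0.37 (95% interval -0.84 to 0.60), for Egr1 by -0.41 ± 0.47 and for Cd69 by -0.41 ± 0.39, all without a call. The count of calls was 2 without the thymic WT library of pool 2, which also ended the call of Egr2 (adjusted p = 0.0529).

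In DN1-DN3 cells 5 of the 7 genes rose in the libraries labelled KO and 0 fell, where 15.2% of all genes tested rose and 7.73% fell. For the Egr genes and Nr4a3 the direction was opposite to that in γδ T cells, whereas Cd69 was not lower under the KO label there either. The WT levels were low. Egr3 was at 0.728 and 1.36 CPM in WT libraries and at 9.86 and 2.91 CPM in KO libraries (log2 difference 2.56 ± 0.55, n = 2, adjusted p = 0.00863, edgeR). Cd69 was at 8.88 and 6.998 CPM against 29.4 and 13.4 CPM (1.41 ± 0.29, adjusted p = 0.00732). Nr4a3 was at 0.356 and 0.626 CPM against 1.84 and 1.32 CPM (1.66 ± 0.34, adjusted p = 0.00628). The KO library of pool 1 was the highest of the 4 for each of these genes.

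The other genes of DN1-DN3 cells were split. Egr2 was at 0.437 and 0.674 CPM in WT and at 2.36 and 1.37 CPM in KO libraries (1.72 ± 0.44, adjusted p = 0.0197, edgeR). Egr1 was at 5.91 and 6.02 CPM against 20.3 and 7.75 CPM (1.21 ± 0.35, adjusted p = 0.0342), a call that was lost without the low-count filter (adjusted p = 0.117), with only the DN libraries fitted (adjusted p = 0.105) and with the excluded genes kept (adjusted p = 0.0506). Nr4a1, at 3.38 and 4.45 CPM against 6.32 and 4.71 CPM, did not pass (0.48 ± 0.16, adjusted p = 0.0577). It passed with DESeq2 (adjusted p = 0.0413), without the low-count filter (adjusted p = 0.0482) and without the WT (adjusted p = 0.0208) or KO library of pool 2 (adjusted p = 0.0256). Nr4a2 was the sole member with a lower mean in KO libraries, at 4.68 and 3.63 CPM against 2.87 and 2.65 CPM (-0.59 ± 0.26, adjusted p = 0.139), and it passed with the pool as a block (-0.58 ± 0.16, adjusted p = 0.0357).

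Cells with a transcript of Trac, the constant region of the TCR α chain, moved with this result. They made up 7.09% and 6.53% of the DN cells in the WT libraries and 35.2% and 17.9% in the KO libraries of pools 1 and 2. Egr1 and Cd69 were higher in these cells than in the rest of each library. Egr1 was at 14.7 and 15.3 CPM in WT and at 38.6 and 29.0 CPM in KO cells with Trac, against 5.09 and 5.17 CPM in WT and 10.99 and 3.85 CPM in KO cells without. Cd69 was at 18.5 and 14.7 CPM in WT and 54.2 and 45.6 CPM in KO cells with Trac, and at 7.99 and 6.29 CPM in WT and 16.7 and 7.51 CPM in KO cells without.

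Without the cells that had a Trac UMI, an alternative added after the data were seen, 0 of the 7 genes were called in DN cells by edgeR, where 10.8% of all genes tested rose and 3.85% fell, and 3 (Egr3, Nr4a2 and Cd69) had an unadjusted p under 0.05. The differences became 1.79 ± 0.71 for Egr3 (adjusted p = 0.145), 0.73 ± 0.31 for Cd69 (adjusted p = 0.174), 0.53 ± 0.39 for Nr4a3, 0.48 ± 0.40 for Egr1 and 0.39 ± 0.56 for Egr2. With all cells, the count was 1 without the WT library of pool 1 and 2 without the KO library of pool 1, in place of 5, and without the WT library of pool 2 Egr1 and Cd69 lost their call (adjusted p = 0.119 and 0.0625). Without the KO library of pool 1 the difference was 1.51 for Egr3, 0.42 for Egr1 and 1.33 for Egr2, and the lowest value with 1 library left out was 0.80 for Cd69 and 1.24 for Nr4a3. The αβ T and double positive list summed to between 30.5 and 34.8 CPM in WT and between 90.5 and 216 CPM in KO libraries. Of its 5 genes, 2 were called higher. Trac went from 18.8 to 20.7 CPM in WT to 65.6 to 154 CPM in KO libraries, and Cd40lg from 3.16 to 3.403 CPM to 18.5 to 51.5 CPM. The ranges of the labels overlapped for Cd4 (0.518 to 0.722 CPM in WT, 0.533 to 0.536 CPM in KO). They also overlapped for Cd8a (0.947 to 1.003 against 0.922 to 1.297 CPM) and Cd8b1 (6.97 to 9.005 against 4.55 to 8.66 CPM). The NK and ILC list summed to between 14.4 and 17.9 CPM in WT and between 68.9 and 123 CPM in KO libraries, with 3 of 4 called higher. Ncr1, the defining NK receptor, was at most 0.065 CPM in WT and between 0.515 and 0.900 CPM in KO DN libraries, and Klrd1 was between 9.17 and 11.003 CPM in WT and between 55.3 and 103 CPM in KO libraries. The part of the NK and ILC cells in the result was not tested.

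**Figure D2:**
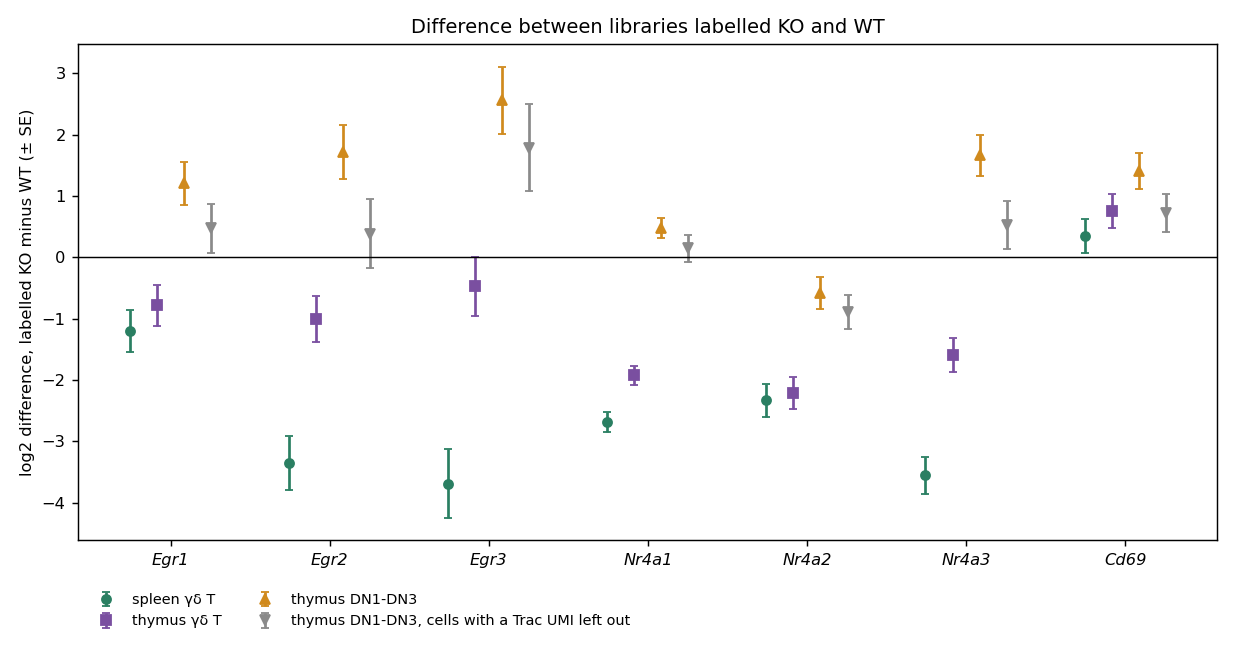
Log2 difference between libraries labelled KO and WT for each of the 7 genes, with the standard error of the fit. Circles are the spleen, squares thymic γδ T cells, upward triangles DN1-DN3 cells and downward triangles the same DN1-DN3 cells without those that had a Trac UMI. The 6 transcription factors lie below 0 in the spleen and in thymic γδ T cells, and Egr3 lies at 2.56 in DN1-DN3 cells.

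DN1-DN3 cells that held at least 2 UMIs of Ptcra, the pre-TCR α chain of DN3 cells, held no member that was called. They numbered 1607 and 2026 in WT and 1048 and 2268 in KO libraries, and Egr2, Egr3 and Nr4a3 had too few counts to be tested, with 0.10 to 0.83 CPM. Egr1 was at 3.36 and 4.01 CPM in WT and at 3.95 and 2.11 CPM in KO cells, and Cd69 was at 4.96 and 3.85 CPM against 5.41 and 3.86 CPM, so both groups overlapped. Of the 4 genes tested, 0 were called by edgeR or DESeq2, where edgeR called 17.1% of all genes tested. With edgeR 1 gene had an unadjusted p under 0.05, Nr4a2, at 0.0116 (-0.86 ± 0.29, adjusted p = 0.063). Nr4a2 passed with the pool as a block (-0.85 ± 0.28, adjusted p = 0.0129) and without the KO library of pool 1 (adjusted p = 0.00464). In DN cells without any Ptcra UMI, Egr1 was at 7.07 and 7.90 CPM in WT and at 28.4 and 14.0 CPM in KO libraries.

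The KO minus WT difference was higher in DN1-DN3 cells than in thymic γδ T cells for 6 of the 7 genes, where 13% of all genes tested were higher. Nr4a3 differed by 3.25 ± 0.44 (adjusted p = 0.00096, edgeR interaction) and Nr4a1 by 2.40 ± 0.22 (adjusted p = 0.000155). Egr3 differed by 3.04 ± 0.73, Egr2 by 2.72 ± 0.58, Egr1 by 1.99 ± 0.48 and Nr4a2 by 1.63 ± 0.37, with adjusted p from 0.00968 to 0.017. Cd69 did not pass (0.66 ± 0.40, adjusted p = 0.276). Without the low-count filter the calls of Egr1 (adjusted p = 0.0701) and Egr3 (adjusted p = 0.069) were lost. Left out in turn, 4 of the 8 libraries ended the call of Egr1, 3 that of Egr3 and 2 that of Nr4a2 (adjusted p 0.0501 to 0.0762). Without DN cells that had a Trac UMI the 3 Nr4a genes were still called, at 2.12 ± 0.46 for Nr4a3, 2.07 ± 0.29 for Nr4a1 and 1.32 ± 0.38 for Nr4a2 (adjusted p 0.00056 to 0.025), and no Egr gene was, where 16.0% of all genes tested were higher. The thymic γδ T libraries kept all their cells in this fit. Trac lay between 51.2 and 62.9 CPM in them, above the 18.8 to 20.7 CPM of the WT DN libraries.

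In the WT libraries all 7 genes were higher in thymic γδ T cells than in DN1-DN3 cells, where 24.4% of all genes tested were higher. The compartments were separate droplet runs, so run and compartment cannot be told apart here or between spleen and thymus. The log2 difference was 4.64 ± 0.33 for Nr4a3, 3.52 ± 0.17 for Nr4a1, 3.37 ± 0.43 for Egr2, 3.26 ± 0.55 for Egr3, 2.91 ± 0.30 for Cd69, 2.75 ± 0.36 for Egr1 and 1.85 ± 0.26 for Nr4a2, with adjusted p from 5.5e-07 to 0.001 (edgeR). All 7 were also called without any 1 of the libraries compared. Between WT spleen and WT thymus only Nr4a1 was called, lower in the spleen by 0.48 ± 0.15 on the log2 scale (fold 0.715, adjusted p = 0.02), where 25.8% of all genes tested were lower. That call was lost without any 1 of the 4 libraries, with differences from -0.51 to -0.39. When only these 4 libraries were fitted, members were called in both directions. Nr4a1 and Egr1 (-0.41 ± 0.08) were lower in the spleen, and Egr3 (0.65 ± 0.10) and Cd69 (0.35 ± 0.12) were higher. In the fit of all libraries 3438 of the 14922 genes tested were higher in the spleen.

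Across the 6 groups, Nr4a1 was highest in WT thymic γδ T cells (44.6 ± 1.0 CPM, SD, n = 2), then in WT spleen (30.2 ± 0.67), KO thymic γδ T cells (10.8 ± 1.6), KO DN cells (5.52 ± 1.1), KO spleen (4.39 ± 0.079) and WT DN cells (3.91 ± 0.75). The levels of the last 2 overlapped, and both KO DN libraries were above them. Nr4a3 had the same 2 groups at the top, at 12.5 ± 1.1 CPM in WT spleen and 12.2 ± 1.2 CPM in WT thymic γδ T cells, which did not differ beyond their spread. Cd69 had another order, with KO thymic γδ T cells (90.4 ± 16 CPM) and KO spleen (84.4 ± 11 CPM) first, overlapping each other, and WT DN cells last (7.94 ± 1.3 CPM). In these orders too, compartment and droplet run cannot be told apart.

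Over the 12 libraries the members followed each other to different degrees. Pearson's r of log2(CPM + 5) was 0.98 for Nr4a1 with Nr4a3 and 0.97 for Egr2 with Nr4a3, and for Cd69 it lay between 0.18 with Nr4a2 and 0.64 with Egr1. Among 6729 genes searched, all with mean levels of 20 CPM or above, those most like Nr4a1 were P2rx7 (r = 0.98), Cox7a2l and Sh3kbp1, and those most like Egr2 were Prkcq (0.98), Ube2h and Pacsin1. Those most like Nr4a3 were Chd3, Ube2h and Chic2, those most like Egr3 were Pacsin1, Cd160 and Adamts6, those most like Egr1 were A430093F15Rik, St6gal1 and Pigp, and those most like Nr4a2 were Il21r, Gltp and Ptpn12. Lcp1, Yaf2 and Pld3 (r = 0.99) were the nearest to Cd69. The 12 points share pools and compartments, so these are descriptions.

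Within the spleen, cells were grouped by the Trgv gene with the most UMIs, where 1 gene led. Trgv calls can be split among similar segments and are uncertain to that extent. Cells that led with Trgv6 were 2.40% and 2.05% of the WT and 43.8% and 39.5% of the KO libraries. In cells that led with Trgv2, Nr4a1 was at 29.1 and 30.3 CPM in WT and at 5.60 and 3.994 CPM in KO libraries. Nr4a3 was at 9.08 and 12.04 CPM against 0.953 and 0.957 CPM, and Egr3 at 12.02 and 15.1 CPM against 1.19 and 1.07 CPM. Egr1 was at 28.0 and 28.7 CPM against 10.1 and 12.2 CPM. Trgv2-led KO cells were thus near Trgv6-led KO cells, in which Nr4a1 was at 4.22 and 3.85 CPM and Egr1 at 12.3 and 11.6 CPM. Whether Trgv2-led cells of the labels are of the same kind otherwise was not tested. Without the cells that led with Trgv6 the differences were -2.65 ± 0.16 for Nr4a1, -3.37 ± 0.31 for Nr4a3 and -3.49 ± 0.58 for Egr3, and no call of a member changed. In 2632 and 3687 of the KO cells no single Trgv gene led, and these cells were kept. The paper places almost all KO splenic γδ T cells in its Vγ6-associated clusters. It also describes detection of Trgv6 by 3′ sequencing as low. How many of the cells kept were of that type was not tested.

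Cells that led with Trgv6 were low for the 6 transcription factors under both labels. In the WT libraries they numbered 188 and 229, and Nr4a1 was at 9.37 and 6.40 CPM (11 and 9 UMIs) beside 4.22 and 3.85 CPM in the KO libraries. Egr1 was at 6.81 and 10.7 CPM in WT and at 12.3 and 11.6 CPM in KO cells. Cd69 was not low in these cells, at 77.5 and 74.7 CPM in WT and at 78.3 and 93.6 CPM in KO libraries. Between the labels 0 of the 7 genes were called by edgeR or DESeq2, where edgeR called 12% of all genes tested. With edgeR 2 genes had an unadjusted p under 0.05, Egr2 at 0.0381 and Nr4a1 at 0.0306. The 95% interval was -1.79 to -0.20 for Nr4a1, -1.38 to 1.33 for Nr4a2, -3.01 to 0.28 for Nr4a3, -3.58 to -0.30 for Egr2 and -3.09 to 0.01 for Egr3. For Egr1 the difference was 0.38 with an interval from -0.22 to 0.99. For Egr1, Egr3, Nr4a1, Nr4a2 and Nr4a3 the point estimate in all splenic cells lay below the interval, and for Egr2 it lay within it. The intervals in all splenic cells overlapped those of Trgv6-led cells for Egr3 (-4.78 to -2.59), Nr4a3 (-4.16 to -2.95) and Egr2 (-4.21 to -2.50). They did not overlap for Nr4a1 (-3.00 to -2.37), Nr4a2 (-2.85 to -1.80) and Egr1 (-1.86 to -0.53). The WT Trgv6-led cells held 1 and 5 UMIs of Egr3, 1 and 4 of Nr4a3, 3 and 2 of Nr4a2 and 2 and 3 of Egr2. Whether Trgv6-led cells differ from all splenic cells was not tested.

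**Figure D3:**
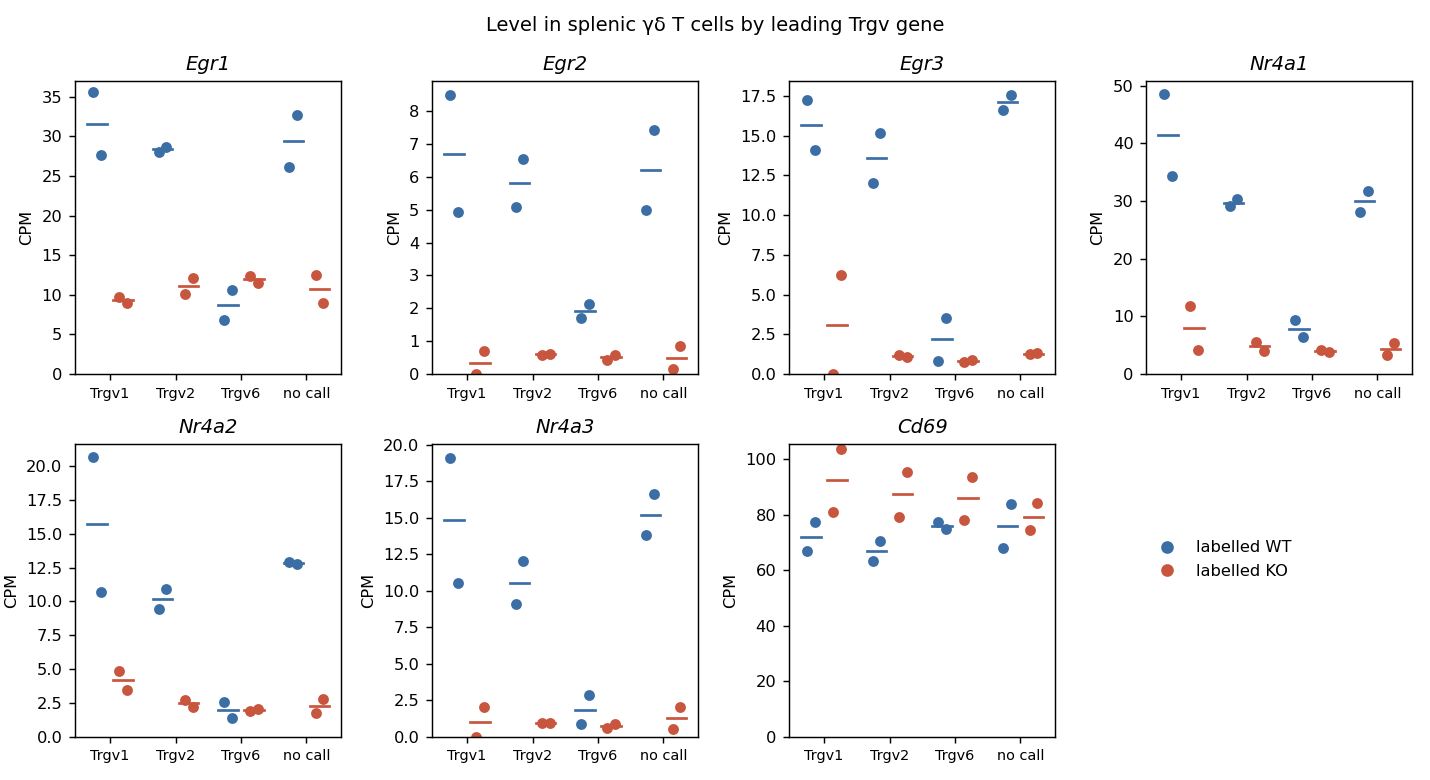
Level of the 7 genes in splenic γδ T cells by leading Trgv gene, in CPM on a linear axis that starts at 0. Points are libraries and horizontal lines the mean of the 2 libraries of a label, blue for WT and red for KO. In Trgv2-led cells Nr4a1 lies at 29.1 and 30.3 CPM in WT and at 5.60 and 3.994 CPM in KO libraries, while Trgv6-led cells are low under both labels.

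Thymic γδ T cells were also grouped by leading Trgv gene. Only groups with at least 100 cells in every library were kept, which left out the Trgv6-led cells of the thymus. The paper places most KO thymic γδ T cells in its Trgv6-positive cluster, so the groups below do not cover all KO cells. Nr4a1 in Trgv2-led cells was at 39.2 and 42.2 CPM in WT and at 16.2 and 18.7 CPM in KO libraries. In Trgv1-led cells it was at 56.2 and 58.6 CPM against 15.03 and 9.57 CPM. In cells where no single Trgv gene led, Nr4a1 was at 51.4 and 47.7 CPM in WT and at 14.2 and 9.14 CPM in KO libraries. The Nr4a1 levels of the labels did not overlap in any of these groups. In Trgv4-led cells Nr4a3 was at 3.32 and 17.2 CPM in WT and at 4.89 and 8.23 CPM in KO libraries, so its groups overlapped, on 4 to 48 UMIs. Egr3 in Trgv2-led cells was at 7.98 and 9.41 CPM in WT and at 13.2 and 6.55 CPM in KO libraries, so its groups overlapped. Egr1 was at 63.8 and 53.2 CPM in WT and 46.6 and 28.7 CPM in KO cells that led with Trgv1, and at 38.1 and 36.9 CPM against 26.7 and 17.5 CPM in those that led with Trgv2.

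Thymic γδ T cells were divided by Cd24a into cells with at least 2 UMIs (Cd24a-high) and cells with 0 (Cd24a-0). The Cd24a-high cells numbered 599 and 801 in the WT and 160 and 115 in the KO libraries, and those with 0 numbered 5398, 6033, 6355 and 7271. The first were far deeper, with medians of 12798 to 17008 UMIs against 5617 to 6118 UMIs per cell, so the gate also selected on depth, and levels are given in CPM.

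In the KO libraries Nr4a1 and Nr4a3 were higher in Cd24a-high than in Cd24a-0 cells, and Cd69 was lower. Nr4a1 was at 36.1 and 61.7 CPM in Cd24a-high and at 9.25 and 5.74 CPM in Cd24a-0 cells labelled KO (log2 difference 2.61 ± 0.42, adjusted p = 0.00201, edgeR), which rests on 86 and 114 UMIs in the high cells. These were unevenly spread, since the 88 and 65 KO cells with exactly 2 Cd24a UMIs were at 8.78 and 19.4 CPM, in pool 1 no higher than the Cd24a-0 cells. Nr4a3 was at 13.4 and 17.3 CPM against 3.61 and 2.12 CPM (2.35 ± 0.52, adjusted p = 0.00657), and 22.8% of all genes tested rose. Cd69 fell, from 83.8 and 104 CPM in Cd24a-0 to 34.0 and 63.3 CPM in Cd24a-high cells (-1.06 ± 0.35, adjusted p = 0.0405), where 28.2% of all genes tested fell. Its call was lost without the KO library of pool 1 (adjusted p = 0.137), with at least 3 Cd24a UMIs (-0.69, adjusted p = 0.259), without the low-count filter (adjusted p = 0.136), without marker-bearing cells (adjusted p = 0.112), with the excluded genes kept (adjusted p = 0.0509) and with the pool as a block (adjusted p = 0.0856), with which Nr4a2 was called higher (1.40 ± 0.40, adjusted p = 0.017). Thinning every cell to 3000 UMIs before the Cd24a gate left 15 to 126 Cd24a-high cells in a library. The edgeR calls of Nr4a1 (1.63 ± 0.88, adjusted p = 0.333), Nr4a3 (2.25 ± 1.19, adjusted p = 0.339) and Cd69 (-0.30 ± 0.58, adjusted p = 0.817) were then lost. The call of Nr4a3 was also lost without the KO library of pool 2 (adjusted p = 0.103).

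In the WT libraries the steps of Nr4a1 and Nr4a3 had smaller estimates when cells were not thinned. Nr4a3 was the only member called, at 26.4 and 12.01 CPM in Cd24a-high and at 8.94 and 9.70 CPM in Cd24a-0 cells (1.11 ± 0.35, adjusted p = 0.0328, edgeR), where 22.7% of all genes tested rose, and the call was lost without the WT library of pool 1 (0.41, adjusted p = 0.477). Nr4a1 was at 72.5 and 42.7 CPM against 34.7 and 41.7 CPM (0.67 ± 0.31, adjusted p = 0.115), and with cells thinned to 3000 UMIs it was the member called (1.43, adjusted p = 0.00439) in place of Nr4a3. The difference of the steps between KO and WT was called for Nr4a1 (1.94 ± 0.51, adjusted p = 0.0342), where 11.5% of all genes tested had a higher step in KO, and for no other member. That call was lost with the pool as a block (1.98 ± 0.57, adjusted p = 0.0656) and without the WT library of pool 2 (adjusted p = 0.157) or the KO library of pool 2 (adjusted p = 0.166). With cells thinned to 3000 UMIs the difference was 0.20 ± 0.79 (adjusted p = 0.978).

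In Cd24a-0 cells the 3 Nr4a genes fell in KO libraries, by 2.21 ± 0.33, 2.22 ± 0.46 and 1.56 ± 0.37 on the log2 scale for Nr4a1, Nr4a2 and Nr4a3 (adjusted p = 0.00123, 0.00606 and 0.00874, edgeR), where 25.7% of all genes tested fell. With the pool as a block Egr1 was called too (-0.76 ± 0.23, adjusted p = 0.0312). Without the KO library of pool 1 the differences were -1.22 for Egr1, -2.16 for Egr2 and -1.44 for Egr3, and Cd69 went the other way, at 0.89. With cells thinned to 3000 UMIs edgeR also called Egr1 (-0.68, adjusted p = 0.00399) and Egr2 (-1.28, adjusted p = 0.0061) lower, and Cd69 higher (0.84, adjusted p = 0.000683). In Cd24a-high cells edgeR called 0 of the 7 genes, where it called 6.37% of all genes tested, and 1 had an unadjusted p under 0.05. This was Egr1, which DESeq2 called (adjusted p = 0.0251), at 46.4 and 32.3 CPM in WT and at 17.2 and 21.6 CPM in KO cells (-1.04 ± 0.43, unadjusted p = 0.0493, adjusted p = 0.223). For Nr4a1 the difference in Cd24a-high cells was -0.27 ± 0.38, with a 95% interval from -1.02 to 0.49. Nr4a2 passed there only with the pool as a block (-1.38 ± 0.34, adjusted p = 0.0419). In KO Cd24a-high cells Nr4a2 stood at 11.3 and 2.16 CPM, which is 27 and 4 UMIs.

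**Figure D4:**
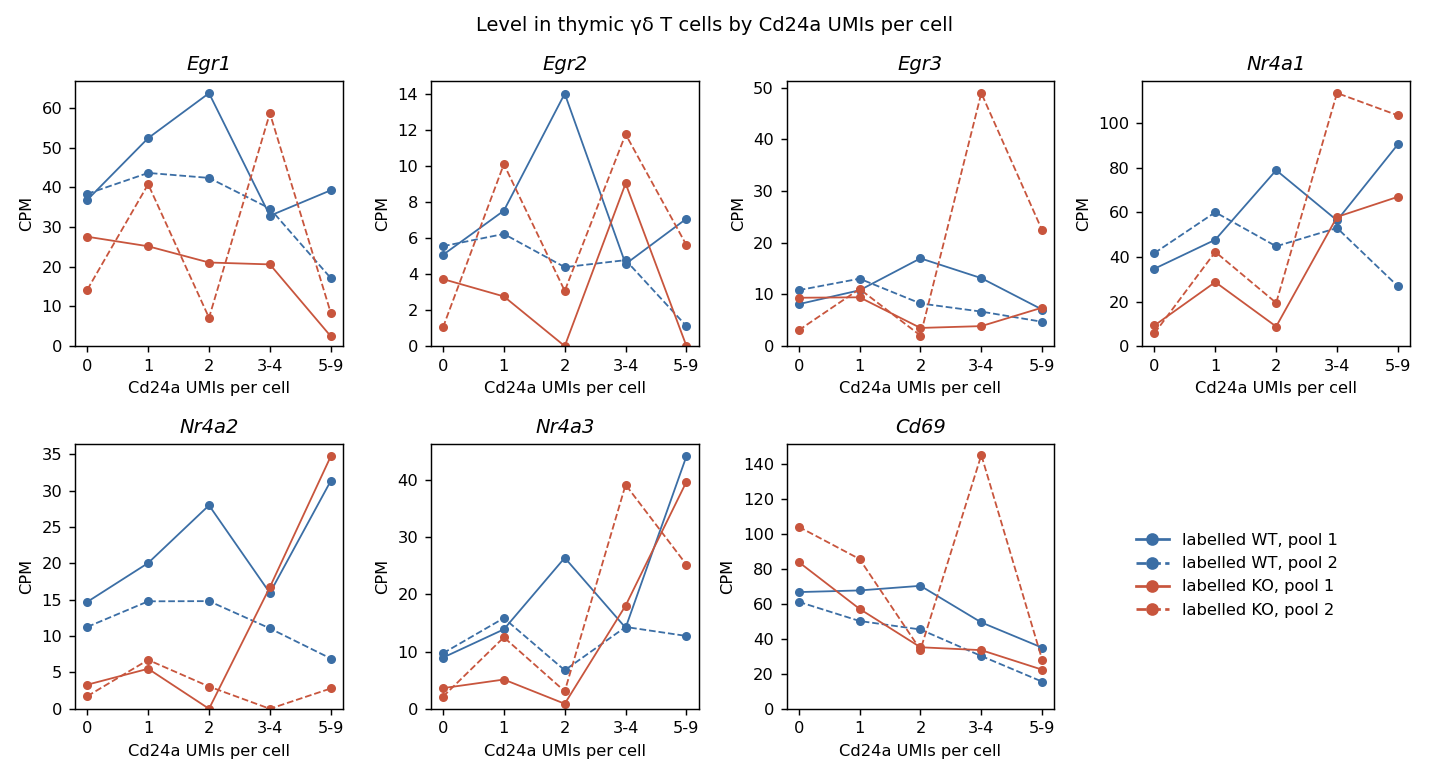
Level of the 7 genes in thymic γδ T cells by the number of Cd24a UMIs in a cell, in CPM. Each line is a library (blue WT, red KO, solid pool 1 and dashed pool 2), and cells with 10 or more Cd24a UMIs, which were at most 21 in a library, are not drawn. Nr4a1 in the KO libraries goes from 9.25 and 5.74 CPM at 0 Cd24a UMIs to 28.7 and 42.3 CPM at 1, 8.78 and 19.4 CPM at 2, and 57.9 and 114 CPM at 3 to 4, where the KO libraries held 48 and 34 cells.

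Single cells showed how the 7 genes were shared out. Each cell was thinned to 3000 UMIs, which left out 4.49% to 19.1% of the cells of a library as too shallow. Nr4a1 then had a UMI in 5.23% ± 0.016 (SD, n = 2) of WT and 1.22% ± 0.21 of KO splenic cells, in 8.44% ± 0.86 of WT and 1.99% ± 0.18 of KO thymic γδ T cells, and in 0.924% ± 0.094 of WT DN cells. Without thinning these shares were 7.51%, 2.22%, 15.2%, 3.27% and 2.40%. In KO DN cells the share was higher than in WT, at 1.27% ± 0.38 after thinning. Cd69 had a UMI in 14.4% ± 0.71 of WT and 19.3% ± 2.3 of KO splenic cells. Free RNA adds to such shares, and no cell type known to lack these genes was set apart here, so the part of free RNA was not tested.

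At 3000 UMIs the groups did not overlap in all 21 pairs of a gene and a compartment, and without thinning they did not in 19, with overlap for Cd69 in thymic γδ T cells and Nr4a1 in DN cells. This holds little information, because the same was true of 74.2%, 76.9% and 56.1% of all genes tested in spleen, thymic γδ T and DN cells. With 2 libraries against 2 the exact two-sided permutation test has 0.333 as its smallest p, which each of the 21 pairs reached. Cells with any of the 7 genes made up 22.4% of KO and 22.0% of WT spleen (exact permutation p = 1), and without thinning 34.8% and 30.3% with no overlap, while cells with any of the 6 transcription factors made up 4.31% ± 0.05 in KO and 10.6% ± 0.69 in WT spleen.

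Cells that showed 3 or more of the genes at once were rarer in γδ T cells labelled KO. A lower share of cells with single genes also lowers this share, and the part beyond that was not tested. At 3000 UMIs, 1.94% ± 0.08 of WT splenic cells had a UMI of 3 or more of the 7 genes, against 0.065% ± 0.035 of KO splenic cells. In thymic γδ T cells the share was 2.50% ± 0.04 in WT and 0.54% ± 0.10 in KO libraries. In DN cells it was 0.19% ± 0.07 in WT and 0.52% ± 0.36 in KO libraries, and in pool 2 the labels were close (0.240% in WT, 0.271% in KO). Cells with exactly 1 of the genes did not follow this order, with 17.6% ± 0.41 in WT and 21.2% ± 2.2 in KO spleen.

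In WT spleen a cell with a UMI of one of these genes held others more often than the remaining cells did. Of WT splenic cells with an Egr3 UMI, 45.7% to 51.5% also had an Nr4a1 UMI, against 4.22% to 4.27% of the other cells. Of those with an Egr2 UMI, 44.9% to 47.9% had Egr3, against 1.56% to 1.86% of the others, and 57.0% to 62.3% had Cd69, against 13.4% to 14.3%. The general immediate early genes went with them too. A UMI of Fos, Jun or Junb was found in 57.85% to 60.87% of WT splenic cells with Egr2, against 22.55% to 22.82% of the others. For Cd69 these shares were 32.21% to 34.31% against 21.34% to 21.46%. In KO spleen, 0 and 4 cells held both Egr3 and Nr4a1, so no share can be read. In KO thymic γδ T cells 26.3% to 28.9% of the cells with Egr3 had Nr4a1, against 1.67% to 1.79% of the rest. These are descriptions within libraries, over cells that share their library.

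**Figure D5:**
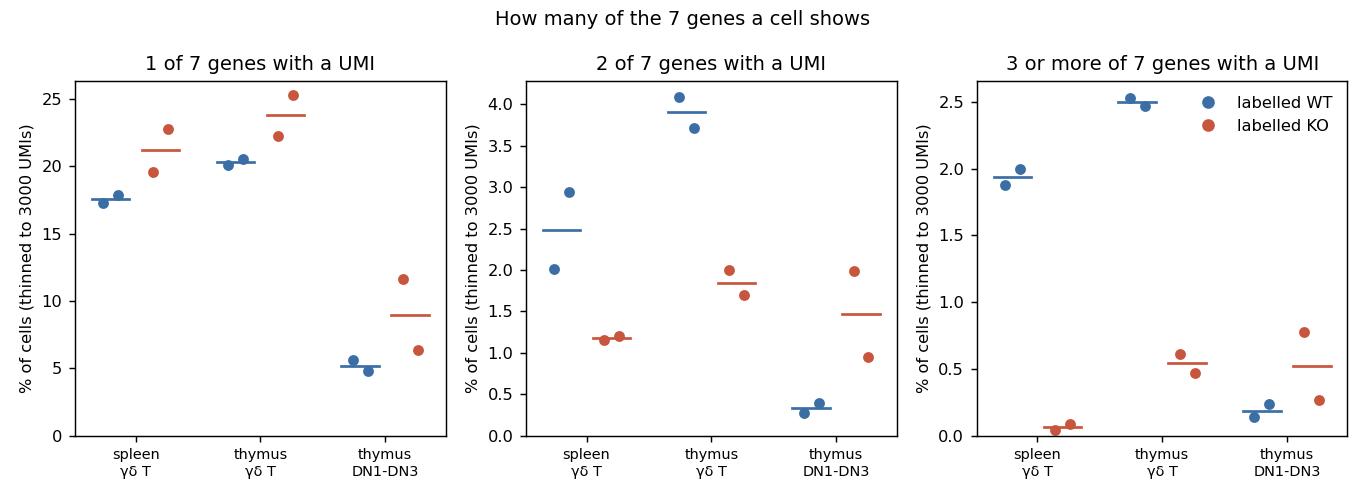
Share of cells with a UMI of 1, 2 or at least 3 of the 7 genes after thinning to 3000 UMIs per cell, in percent, with each panel on its own axis from 0. Points are libraries and horizontal lines the mean of the 2 libraries of a label, blue for WT and red for KO. The share with at least 3 genes is 1.94% in WT and 0.065% in KO spleen.

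Genes that work with the Egr and Nr4a factors, or are known targets of them, were lower on balance in γδ T cells labelled KO. Of 10 such genes, 7 fell and 0 rose in the spleen, 7 fell and 0 rose in thymic γδ T cells, and 4 rose and 0 fell in DN cells, with a median log2 difference of -1.53, -0.79 and 0.36 beside 0.0032, -0.0018 and -0.019 over all genes tested. Of all genes, 26.1% fell and 28.6% rose in the spleen, 23.7% fell and 26% rose in thymic γδ T cells, and 15.2% rose and 7.73% fell in DN cells. The differences of this and the following lists are over all cells of a library. Trgv6-led cells were 2.40% and 2.05% of the WT and 43.8% and 39.5% of the KO splenic libraries. The part of such shifts in cell type in the list differences was not tested. Id3, which opposes E proteins and is raised by Egr factors, fell from 254 ± 40 to 13.2 ± 2.9 CPM (SD, n = 2) in the spleen (log2 difference -4.17 ± 0.27) and from 549 ± 10 to 156 ± 50 CPM in thymic γδ T cells (-1.70 ± 0.24). Bcl2l11, which encodes the pro-apoptotic protein Bim, fell by 2.21 ± 0.11 in the spleen and by 0.81 ± 0.10 in thymic γδ T cells. Cblb, a ubiquitin ligase that restrains TCR signalling, fell by 1.61 ± 0.09 and Nab1, a corepressor that binds Egr proteins, by 1.05 ± 0.18 in the spleen. Tox2 fell by 2.80 ± 0.20 and Nab2 by 0.81 ± 0.27 in thymic γδ T cells. In DN cells Ikzf2 (Helios) rose by 0.91 ± 0.14.

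Of 22 TCR-induced genes and feedback inhibitors, 11 fell and 6 rose in the spleen, 7 fell and 5 rose in thymic γδ T cells, and 12 rose and 1 fell in DN cells. The shares over all genes were 26.1% lower and 28.6% higher, 23.7% lower and 26% higher, and 15.2% higher and 7.73% lower. Ubash3a, a phosphatase that dampens TCR signals, fell by 4.77 ± 0.13 in the spleen and by 2.22 ± 0.11 in thymic γδ T cells. Tnfrsf9 (4-1BB) fell by 3.29 ± 0.28 and 1.45 ± 0.26, and Cd5, a receptor whose level follows TCR signal strength, by 2.17 ± 0.27 and 1.03 ± 0.26. Pdcd1, which encodes the inhibitory receptor PD-1, went the other way in the spleen, from 33.1 ± 0.80 to 107 ± 8.1 CPM (1.78 ± 0.17). Myc fell by 1.13 ± 0.27 in thymic γδ T cells. In DN cells Rel rose by 1.06 ± 0.13, Nfkbia by 0.96 ± 0.14 and Nfatc1 by 0.46 ± 0.13, and Ubash3a fell by 0.74 ± 0.11. Without cells that had a Trac UMI, 6 of the 22 rose and 1 fell in DN cells.

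The proximal TCR machinery moved both ways. Of 16 genes, 7 rose and 6 fell in the spleen, 6 rose and 3 fell in thymic γδ T cells, and 6 rose and 0 fell in DN cells, beside 28.6% and 26.1%, 26% and 23.7%, and 15.2% and 7.73% of all genes. Lck, the kinase that starts the signal, fell from 516 ± 58 to 20.4 ± 1.8 CPM in the spleen (-4.57 ± 0.22) and by 1.54 ± 0.19 in thymic γδ T cells. Blk, another kinase of the Src family, rose by 3.82 ± 0.28 in the spleen, by 2.13 ± 0.26 in thymic γδ T cells and by 2.17 ± 0.26 in DN cells. Prkcq, which encodes protein kinase C theta, fell by 2.39 ± 0.20 in the spleen and rose by 1.09 ± 0.19 in DN cells. Lat rose by 1.25 ± 0.11 in the spleen, and Zap70 by 1.25 ± 0.20 and Cd3g by 1.20 ± 0.14 in thymic γδ T cells. Zap70 and Fyn rose in DN cells, by 1.33 ± 0.21 and 1.13 ± 0.14.

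General immediate early and dissociation genes moved both ways. Of 18 such genes, 7 rose and 5 fell in the spleen, 8 rose and 2 fell in thymic γδ T cells, and 8 rose and 1 fell in DN cells, beside the same shares of all genes. Their summed level went from between 1403 and 1439 CPM in WT to between 2006 and 2209 CPM in KO spleen. It lay between 1558 and 1674 CPM in WT and between 1462 and 1660 CPM in KO thymic γδ T cells, and between 2271 and 2339 CPM in WT and between 1753 and 2025 CPM in KO DN cells, where most calls were higher. Jund rose by 1.28 ± 0.13, Ier2 by 1.10 ± 0.17, Zfp36 by 0.87 ± 0.22 and Klf6 by 0.67 ± 0.14 in the spleen. Junb rose by 1.95 ± 0.25, Ier5 by 1.63 ± 0.21 and Klf6 by 1.38 ± 0.14 in thymic γδ T cells, where the chaperone Hsp90aa1 fell by 1.12 ± 0.24. In DN cells Junb, Ier5, Klf6 and Ier2 rose by 1.43 ± 0.24, 1.41 ± 0.21, 1.02 ± 0.15 and 0.97 ± 0.17.

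Of the genes that act with Cd69 on egress and homing, Ccr7, a chemokine receptor, fell by 4.35 ± 0.20 in the spleen and by 1.03 ± 0.17 in thymic γδ T cells. Klf2, a factor that drives S1pr1, fell by 0.75 ± 0.18 in thymic γδ T cells and rose from 19.5 ± 2.8 to 148 ± 4.2 CPM in DN cells (2.92 ± 0.19).

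Markers of other cells also differed between the labels in the spleen. The 4 NK and ILC genes, which γδ T cells share in part, were all called lower in KO libraries, at 395 to 476 CPM in WT and 31.3 to 32.9 CPM in KO, and the αβ T and double positive list had 3 of 5 genes lower, at 203 to 256 CPM in WT and 62.7 to 69.3 CPM in KO. Cd4 was at most 0.095 CPM and Rag1 at 0 in WT spleen. In thymic γδ T cells the NK and ILC list summed to between 24.8 and 28.4 CPM in WT and between 12.3 and 48.8 CPM in KO libraries, Ncr1 was at most 0.014 CPM, and the DN1-DN3 list had 3 of 5 genes lower and 1 higher while its sum went from between 60.7 and 80.8 CPM in WT to between 134 and 160 CPM in KO libraries. B cell markers summed to between 26.7 and 30.7 CPM in WT and between 52.4 and 52.7 CPM in KO spleen, with 1 of 4 tested genes called higher, and erythroid markers to between 33.6 and 37.9 CPM in WT and between 63.5 and 145 CPM in KO spleen, with 2 of 4 called higher. Without cells that held B cell, myeloid or erythroid markers, no call of a member changed in the spleen. In thymic γδ T cells Cd69 then lost its call (adjusted p = 0.0591) and Egr2 gained one (adjusted p = 0.0476), and in DN cells Egr1 lost its call (adjusted p = 0.0515). The part of NK-like and αβ T cells in the γδ T results was not tested.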

How the data were processed

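The authors ran Cell Ranger 8.0.1 with GRCm39, per the labels, split each pool by hashtag with hashsolo, and deposited raw UMI counts of genes in cells, which were used unchanged. The genotype came from the hashtag that led in a library, which the labels tie to WT or KO. That tag led in 99.6% to 100% of its cells. A cell needed 500 UMIs and 200 genes, with mitochondrial UMIs at 20% or below, which kept 96911 of 97404 cells. Ribosomal, mitochondrial and Gm-numbered genes (9536 by name) were left out, after the study's methods. No doublet caller was run, and the sources used here do not say how doublets were treated. Doublets of 1 genotype carry 1 hashtag and can add to the shares of cells with several genes.

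Counts were summed per library, because cells are not replicates, and tested in 14 comparisons with the edgeR 4.0.16 quasi-likelihood F test (robust, TMM, default low-count filter; R 4.3.3, limma 3.58.1). P-values were adjusted by Benjamini-Hochberg over all genes tested, and a gene was called at an adjusted p below 0.05. The 3 compartments shared 1 fit of the 12 libraries, and cell classes had fits of their own. Standard errors are the log2 difference over the square root of F, and 95% intervals span 1.96 standard errors on each side. Alternatives were DESeq2 1.42.0, no low-count filter, the pool as a replicate block, at least 1000 UMIs per cell, excluded genes kept, cells with other lineages' markers left out, at least 3 Cd24a UMIs, thinned cells, only the libraries compared, and each library left out. The fits were also run on simulated counts with known differences as a check of the code, which does not measure their error rate on these libraries. Levels are CPM of a library's UMIs without a length correction, so genes are not compared with each other. Shares used cells thinned to 3000 UMIs (seed 1, Python 3.11.15). Counting error is the only error that UMI numbers convey.

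WT and KO cells of a pool shared a droplet run, so the pool number pairs them. The pools' deviations from the group mean correlated between WT and KO with r = 0.43 in spleen, 0.039 in thymic γδ T and 0.35 in DN cells over 14922 genes. No source says that the pools held separate animals, so p-values measure the spread between these libraries, which may be technical. Cd24a-high and Cd24a-0 cells came from the same libraries. List genes are named where called, at 20 CPM or more on average in the compartment, and among the 4 largest changes of their list. For the list on egress and homing, 1 gene and the list's counts are not reported here. For each member the 3 genes with the highest r are named. The members and lists were chosen with earlier results of these data known.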

Additional observations from a re-analysis of the deposited data

Results flagged for a closer look

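The KO minus WT difference of several genes differed between compartments in the test of the difference itself. Between spleen and thymic γδ T cells these were Egr2 (-2.35 on the log2 scale), Egr3 (-3.21), Nr4a1 (-0.76) and Nr4a3 (-1.97). Between DN1-DN3 cells and thymic γδ T cells they were Egr1 (1.99), Egr2 (2.72), Egr3 (3.04), Nr4a1 (2.40), Nr4a2 (1.63) and Nr4a3 (3.25). The step from Cd24a-0 to Cd24a-high thymic γδ T cells differed between the labels for Nr4a1 (1.94). With the pool as a block this call (adjusted p = 0.0656) and that of Nr4a1 between spleen and thymus (adjusted p = 0.0517) were lost, and with cells thinned to 3000 UMIs the first was 0.20 (adjusted p = 0.978).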

How the results depend on the processing

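No called difference of a member turned its direction under any alternative run. Of the called values, 155 kept their call and 41 lost it with 1 library left out, and 273 kept it and 33 lost it under the other alternatives. The causes were not tested, beyond the smaller number of cells, genes or libraries that an alternative itself leaves.

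The number of members called moved as follows. Apart from the fit without Trac cells, the share of all genes called under these alternatives is not given, so these counts have no background beside them. Without DN cells that had a Trac UMI it was 0 in DN cells and 3 for DN against all thymic γδ T cells. With only the libraries compared it was 4 for WT spleen against thymus. Without the low-count filter it was 0 for Cd24a-high against Cd24a-0 cells in WT (the Cd24a step), 0 for its KO minus WT difference and 1 in Ptcra-high cells. Thinned, it was 0 for Cd24a in KO, 0 for KO minus WT and 6 in Cd24a-0 cells. With 3 Cd24a UMIs it was 2 for KO minus WT. DESeq2 gave 1 in Cd24a-high and 5 in Cd24a-0 cells. With the pool as a replicate block it was 0 for Cd24a KO minus WT, 1 in Cd24a-high and 1 in Ptcra-high cells, and the calls the block changed are given beside their results. It changed no other call.

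Some differences that were not called turned sign. With 3 Cd24a UMIs these were Egr1 (-0.22), Egr2 (-0.27) and Egr3 (-0.11) in the WT step, Egr1 (0.15) in the KO step, Egr1 (0.37) and Cd69 (0.17) in KO minus WT, and Egr2 (0.79), Nr4a1 (0.59) and Nr4a3 (0.46) between labels in Cd24a-high cells. Thinned, these were Egr2 in the WT step (-0.17), Nr4a2 in KO minus WT (-0.022) and Egr2 in Cd24a-high cells (0.54). Cd69 became -0.025 for DN against thymic γδ T cells without the DN cells that had a Trac UMI. Nr4a2 in Trgv6-led cells became 0.0011 without the filter and 0.035 without marker-bearing cells, with which Cd69 in Ptcra-high cells became -0.0297.

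With 1 library left out, the calls ranged from 1 to 6 in DN cells, 2 to 4 for spleen against thymic γδ T cells, 0 to 0 for WT spleen against thymus, 0 to 1 for Cd24a in WT, 0 to 2 for KO minus WT, 3 to 7 in Cd24a-0 and 0 to 1 in Ptcra-high cells.

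Leaving out 1 library also turned the sign of differences that were not called, over these ranges. Between compartments these were Nr4a2 for the label effect in spleen minus thymus (-0.50 to 0.40), and Egr2 (-0.0658 to 0.294) and Nr4a2 (-0.421 to 0.0204) in WT spleen against thymus. In the WT step with Cd24a they were Egr1 (-0.15 to 0.42), Egr2 (-0.52 to 0.87) and Egr3 (-0.58 to 0.80), in the KO step Egr1 (-0.71 to 0.50), Egr2 (-0.37 to 2.41) and Egr3 (-0.51 to 2.52), and in KO minus WT Egr1 (-0.86 to 0.37), Egr2 (-0.63 to 2.16), Egr3 (-0.65 to 2.39) and Nr4a2 (-0.32 to 1.20). Between labels in Cd24a-high cells they were Egr2 (-1.04 to 0.23), Egr3 (-0.57 to 0.95), Nr4a1 (-0.68 to 0.15), Nr4a3 (-0.81 to 0.32) and Cd69 (-0.34 to 0.58). Elsewhere they were Egr3 in Cd24a-0 cells (-1.44 to 0.0862), Nr4a2 in Trgv6-led cells (-0.44 to 0.46), and Egr1 (-0.738 to 0.0373) and Cd69 (-0.11 to 0.25) in Ptcra-high cells. An arm left with 1 library was assumed to vary like the others. Leaving out Trac or Trgv6 cells, and the block across compartments, were chosen after the data were seen. The number of cells limited the Cd24a-high KO class (160 and 115 cells), where Nr4a2 rested on 27 and 4 UMIs.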
